A study of Caenorhabditis elegans with 2 samples.

Results

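Of the 2689 regions in the pooled list of a chromatin immunoprecipitation (ChIP-seq) study of the protein Y116A8C.19 in Caenorhabditis elegans, 596 had their summit in an intron. A region was counted as intronic when its summit lay inside a protein-coding gene, outside every annotated exon, and outside every promoter window, which ran from 1000 bp before to 200 bp after the 5′ end of a protein-coding gene. The summit is the base of strongest signal in a region. The pooled list joins peaks with background regions, so a place on it does not by itself mark a bound site. Within it, 198 regions also stood in the authors' stricter list, thresholded by the irreproducible discovery rate (IDR, a measure of how well replicates rank the same regions), and 20 of these were intronic.

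The annotation gives Y116A8C.19 a C3H1-type zinc finger. All worms came from strain OP532, with the allele unc-119(tm4063) on chromosome III and the integrated transgene wgIs532, which makes Y116A8C.19 with GFP and FLAG at its C-terminal end. Hermaphrodite L1 larvae were arrested by starvation at hatching after bleaching, taken 6 hours later, and immunoprecipitated whole with an antibody against GFP. There was 1 group with 2 biological replicates, no untagged or untreated group among the samples, and the control experiment was not analysed here. The larvae hold many cell types in unknown proportions, and the tagged protein came from a transgene, so neither the cells nor the level of the native protein can be read from the lists. RNA was not measured, so no host gene or nested gene can be called active or silent here. The depth behind the lists is unknown.

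Introns of C. elegans hold more than spliced-out sequence. A gene with several annotated transcripts can have a start inside what is an intron of its longer form, so a promoter of the gene can lie far from its outermost 5′ end. Introns also hold whole genes for small RNAs: snoRNAs, which guide the chemical modification of other RNAs, snRNAs, which serve in the spliceosome, and tRNAs. In nematodes a number of intronic snoRNA genes carry promoters of their own. tRNA genes are transcribed by RNA polymerase III from elements inside the transcribed DNA, of which the B box is bound by the factor TFIIIC.

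Some of the strongest intronic regions held the same short run of letters. An 8-base element, GAGTACAC, had been picked out earlier in these data at the strongest regions of the whole list, together with a second, CTAGGCCA, and both were searched on either strand with up to 1 mismatch within 75 bp of a summit. GAGTACAC was found in 10 of the 20 intronic IDR regions, of which 7 are shown and those in pqn-41, Y111B2A.12 and srh-2 are not. It was not found at the summits in dhc-4, W05H12.1 and hmt-1, which are also among the strongest. The stretches below, from the RefSeq genome of build WBcel235 (ce11), are set so that GAGTACAC starts at the same letter in each line. Capitals mark this copy and any copy of CTAGGCCA, which can lie on the other strand.
Y56A3A.7, chrIII:11946540-11946591, minus strand: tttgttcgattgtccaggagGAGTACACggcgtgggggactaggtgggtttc
gly-5, chrIII:13187948-13187999, minus strand: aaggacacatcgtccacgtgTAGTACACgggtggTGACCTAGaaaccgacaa
Y65A5A.2, stronger region, chrIV:16415756-16415807, plus strand: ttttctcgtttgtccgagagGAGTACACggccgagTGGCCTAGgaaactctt
Y65A5A.2, weaker region, chrIV:16415250-16415301, plus strand: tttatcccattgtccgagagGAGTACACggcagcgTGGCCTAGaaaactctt
ssup-72, chrII:6776852-6776903, minus strand: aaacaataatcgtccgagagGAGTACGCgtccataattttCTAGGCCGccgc
pptr-2, chrV:11029442-11029493, plus strand: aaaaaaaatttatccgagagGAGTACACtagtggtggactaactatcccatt
ari-1.4, chrIV:15526622-15526673, plus strand: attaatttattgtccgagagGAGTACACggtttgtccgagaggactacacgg

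In 5 of these 10 regions the letters just before GAGTACAC are also much alike. A 17-base run read from both windows in Y65A5A.2, gtccgagagGAGTACAC, was found without mismatch in 3 of the 20 intronic IDR regions, those in Y65A5A.2 and the region in ari-1.4. With up to 2 mismatches it was found in 6 of the 20 (30%, 95% exact binomial interval 11.9 to 54.3%), which adds ssup-72, pptr-2 and Y56A3A.7. In the 4 other regions with GAGTACAC the closest match had 4 mismatches in gly-5, 5 in srh-2 and 7 in both pqn-41 and Y111B2A.12. The run was found in 0 of the other 576 intronic regions (interval 0 to 0.638%), in 36 of the 178 IDR regions outside introns (20.2%) and in 20 of the 1915 remaining regions (1.04%). Among intronic regions of the replicate lists that overlapped no pooled region, 4 of 5406 held it in replicate 1 and 5 of 5830 in replicate 2. The run was read from these regions and chosen after their values were seen, so the counts describe them and are not a test. The windows in Y65A5A.2 lie 500 bp apart and share a further stretch of 25 bases, aaactcttgcgcggttatttgaatc, so their DNA is in part a repeat and they are not independent copies.

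Summits upstream of nested snoRNA and snRNA genes came with other letters. All 10 snoRNA genes and both snRNA genes within 500 bp of an intronic summit had the summit upstream of their 5′ end, by 11 to 91 bp. The position rule leaves out every annotated exon, those of RNA genes included, so a summit inside such a gene could not be counted. Each of the 12 genes had 1 of a pair of elements on its own strand, starting 5 to 82 bp upstream of its 5′ end. Both elements were read from these windows after their values were seen. The first, GNAACNCNNNNNNTGTC, stood before 4 snoRNA and both snRNA genes. These 5 stretches read in the direction of the small RNA gene, with the element in capitals, and all but that of ZK994.7 run a few bases into the gene. The stretch of the snRNA gene F32B5.9 is not shown.
R07E5.16, snRNA in dhc-4, chrIII:10989600-10989683, plus strand: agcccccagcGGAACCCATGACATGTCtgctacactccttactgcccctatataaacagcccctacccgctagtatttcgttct
ZK994.7, snoRNA in pxn-1, chrV:8500487-8500573, plus strand: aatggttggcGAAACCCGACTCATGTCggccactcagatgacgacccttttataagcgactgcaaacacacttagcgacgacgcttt
C16D9.11, snoRNA in rol-3, chrV:8228965-8229039, minus strand: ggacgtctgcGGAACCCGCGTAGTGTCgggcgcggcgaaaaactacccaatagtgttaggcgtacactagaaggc
F01D5.12, snoRNA in F01D5.10, chrII:14018437-14018511, minus strand: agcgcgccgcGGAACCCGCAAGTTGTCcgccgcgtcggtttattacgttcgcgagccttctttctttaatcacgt
C08D8.3, snoRNA in C08D8.1, chrV:8349039-8349112, plus strand: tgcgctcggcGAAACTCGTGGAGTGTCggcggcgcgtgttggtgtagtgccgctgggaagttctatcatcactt

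The second element, GTTCNANNC, spells the core of the B box of tRNA genes and stood before the other 6 snoRNA genes. It lay at the gene's annotated 5′ end or just upstream of it. It is again in capitals, preceded by 50 bases.
Y43F8C.22, snoRNA in Y43F8C.7, chrV:19643183-19643246, minus strand: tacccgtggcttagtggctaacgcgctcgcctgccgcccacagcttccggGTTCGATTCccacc
H04D03.5, snoRNA in smrd-1, chrIII:10432278-10432347, plus strand: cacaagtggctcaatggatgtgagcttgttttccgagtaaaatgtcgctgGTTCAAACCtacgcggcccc
M106.6, snoRNA in mix-1, chrII:10840250-10840321, plus strand: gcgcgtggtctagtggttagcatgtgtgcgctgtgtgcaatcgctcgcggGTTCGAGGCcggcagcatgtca
Y38F2AR.14, snoRNA in Y38F2AR.12, chrIV:2408631-2408690, minus strand: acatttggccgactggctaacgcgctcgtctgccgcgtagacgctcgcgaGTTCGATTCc
F11A10.9, snoRNA in rbm-34, chrIV:12086639-12086712, plus strand: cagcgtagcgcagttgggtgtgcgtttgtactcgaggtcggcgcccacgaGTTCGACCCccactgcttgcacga
C04G6.12, snoRNA in mpk-2, chrII:5105227-5105295, minus strand: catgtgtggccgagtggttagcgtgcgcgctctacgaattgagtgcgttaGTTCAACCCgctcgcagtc

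Intronic regions were mostly weak in the pooled list, as were the other regions outside promoter windows. Their signal, the authors' value in the list, ranged from 24.5 to 226 with a median of 27.4 (95% interval of the median 27.1 to 27.8, n = 596), against a median of 28.4 (28.2 to 28.6, n = 2093) in the rest of the list. Placed by rank, the median intronic region sat at the 42.4th percentile of the list (39.4 to 46.7), against the 52.1st for the rest and the 64.3rd for regions in promoter windows. The median was 41.1 (36.8 to 44.6) for regions in exons and 45.6 (41.8 to 49.9) for regions in none of these classes. The median −log10 q was 0.102 for intronic regions and 0.152 for the rest. By the authors' own q-value, 31 of the 596 (5.20%) were at or below 0.05, against 289 of the 2093 others (13.8%) and 11.9% of the whole list. Of the 596 intronic regions, 20 (3.36%, interval 2.06 to 5.14%) were in the IDR list, against 178 of the other 2093 (8.50%) and 154 of 1027 in promoter windows (15%). Over the whole pooled list this share was 7.36%. It was 0.839% in exons (4 of 477) and 3.40% for regions in none of these classes (20 of 589).

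The share of intronic regions grew toward the weak end of the ranking. They made up 10.1% of the 198 strongest pooled regions, 12.9% of ranks 199 to 500, 21% of ranks 501 to 1000 and 30.7% of ranks 2501 to 2689. By comparison, 29.8% of the bases of the 6 nuclear chromosomes meet the position rule; these are called rule positions below. In the replicate lists the strongest 198 regions held 21 intronic ones each (10.6%), and the whole lists held 6050 of 22595 (26.8%) in replicate 1 and 6412 of 22356 (28.7%) in replicate 2. The replicates differed at ranks 199 to 500, where 12.6% of regions were intronic in replicate 1 and 22.8% in replicate 2, with intervals that did not overlap.

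**Figure D1:**
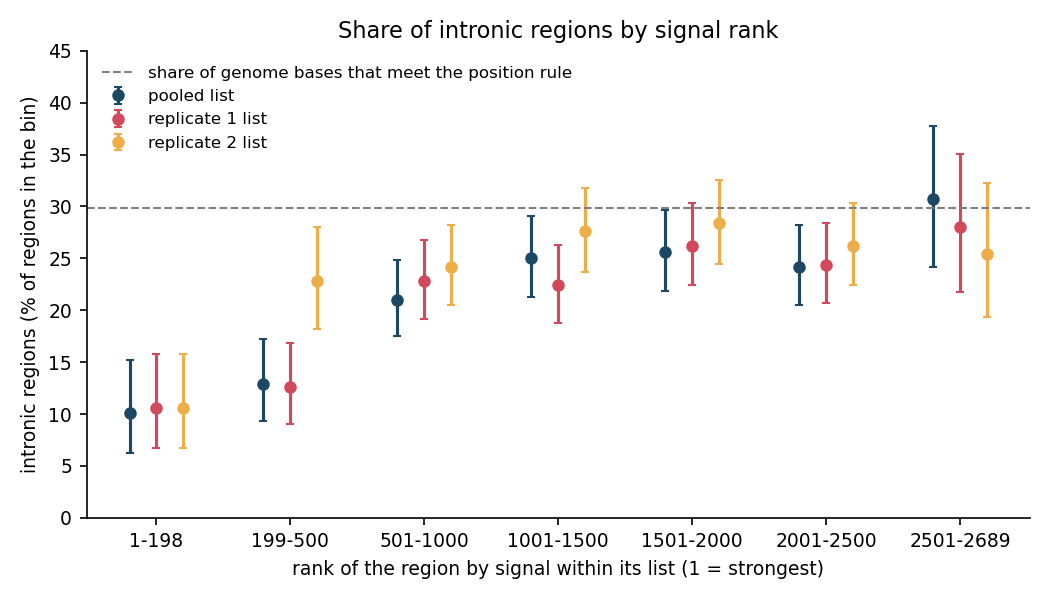
Share of regions with an intronic summit (percent, vertical axis) in bins of signal rank (horizontal axis, strongest at left) for the pooled list and each replicate list; bars are 95% exact binomial intervals and the dashed line is the 29.8% of genome bases that meet the position rule. In the strongest 198 regions the share was 10.1% in the pooled list and 10.6% in either replicate list, below the dashed line, and the interval of the last pooled bin spans the line.

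Regions of the whole replicate lists overlapped most intronic regions of the pooled list, but the replicates ordered them differently. A region of both replicate lists overlapped 446 of the 596 intronic regions by at least 1 bp (74.8%, interval 71.1 to 78.3%), near the 77.6% of the whole pooled list. The replicate 1 list held 548 of the 596, and the replicate 2 list held 494. Over the 446 regions found in both, signal in replicate 1 and replicate 2 had a Spearman rho of -0.10. It was 0.56 over the 20 in the IDR list, -0.22 over the 426 others and 0.17 over the 1642 pooled regions outside introns that both lists held. The IDR list coincides with the 198 strongest regions of the pooled list, whose signal draws on both replicates. The 20 are thus also the intronic regions of highest pooled signal, and the value over them is set in part by that choice. These are descriptions across regions of the same libraries, and a place on the pooled list depends on both of them. The replicate lists were also compared directly by their own 596 strongest intronic regions. Of these, 67 in replicate 1 and 68 in replicate 2 overlapped one of the other replicate's 596 (11.2% and 11.4%). Among the 20 strongest of each, 8 did.

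The 20 intronic IDR regions lay in 19 host genes. Signals of different lists are not known to share a scale, so each is set beside its rank in its own list where replicates are compared. The strongest, rank 3 of the whole pooled list, lay 454 bp inside Y56A3A.7 (WBGene00013228), whose annotated product is a homeobox protein of the cut-like kind. Its signal was 226 in the pooled list, 136 in replicate 1 and 86.2 in replicate 2, where it ranked 3rd and 2nd. No internal start of the host and no small RNA gene lay beside this summit.

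The next was in the first intron of gly-5 (WBGene00001630), which encodes an enzyme that starts O-linked glycan chains on proteins. Signal there was 145 in the pooled list, 84.6 in replicate 1 and 59.5 in replicate 2, and the summit lay 144 bp upstream of an internal start of gly-5. Both regions in Y65A5A.2 (WBGene00013419), annotated as a glycoprotein, shared an intron of 1020 bp. Their pooled signals were 121 and 112.5, and they lay 303 and 803 bp upstream of the same internal start. In each of these 4 regions replicate 1 and replicate 2 ranked the region within their 52 strongest.

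The summit in dhc-4 (WBGene00012272), a dynein heavy chain gene, had a signal of 95.4 in the pooled list, 55.3 in replicate 1 and 41 in replicate 2. It was 19672 bp from the 5′ end of the gene and 63 bp upstream of the nested snRNA gene R07E5.16. In ssup-72, which encodes a phosphatase acting on the tail of RNA polymerase II, signal was 88.9 in the pooled list, and the summit was 253 bp inside the gene and 225 bp upstream of an internal start. The whole gene spans 1303 bp.

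Signal in the pooled list was 86.1 in W05H12.1, annotated with an activin receptor domain, 82.3 in hmt-1, a heavy metal tolerance transporter, and 80.6 in pptr-2, a regulatory subunit of protein phosphatase 2A. The summit in pptr-2 was 117 bp upstream of an internal start and had the ncRNA genes C13G3.6 and C13G3.8 within 500 bp. Signal was 71.4 in W06H8.6, annotated with a basic helix-loop-helix domain, and 66.1 in pxn-1, a peroxidasin of the extracellular matrix. The region in W06H8.6 ranked 194th in replicate 1 and 51st in replicate 2, and that in pxn-1 ranked 93rd in replicate 1 and 323rd in replicate 2.

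The remaining 9 had pooled signals of 55.0 to 61.2. They were in Y41G9A.17, Y39A1C.1, T28F4.1 (a SERTA domain), pqn-41 (a protein rich in glutamine and asparagine), Y111B2A.12 (WD repeats), srh-2 (a chemoreceptor of the serpentine family), gei-4 (a bZIP domain), ldb-1 (which binds LIM domain proteins) and ari-1.4 (a ubiquitin ligase). Replicate 2 gave several of them little weight. The region in gei-4 ranked 92nd in replicate 1, with a signal of 48.9, and 13565th in replicate 2, with 8.95. The region in ldb-1 ranked 131st in replicate 1 and 13109th in replicate 2, and those in ari-1.4 and Y111B2A.12 ranked 4129th and 2372nd in replicate 2. GC content was 61.6% in the 151 bp around the summits in gei-4 and ldb-1, against a median of 43.4% over the 20 and 34.4% over the other 576 intronic regions. It was lower than 61.6% around the summits in ari-1.4 and Y111B2A.12, which replicate 2 also ranked low. Whether GC content had a part in the difference between replicates was not tested.

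**Figure D2:**
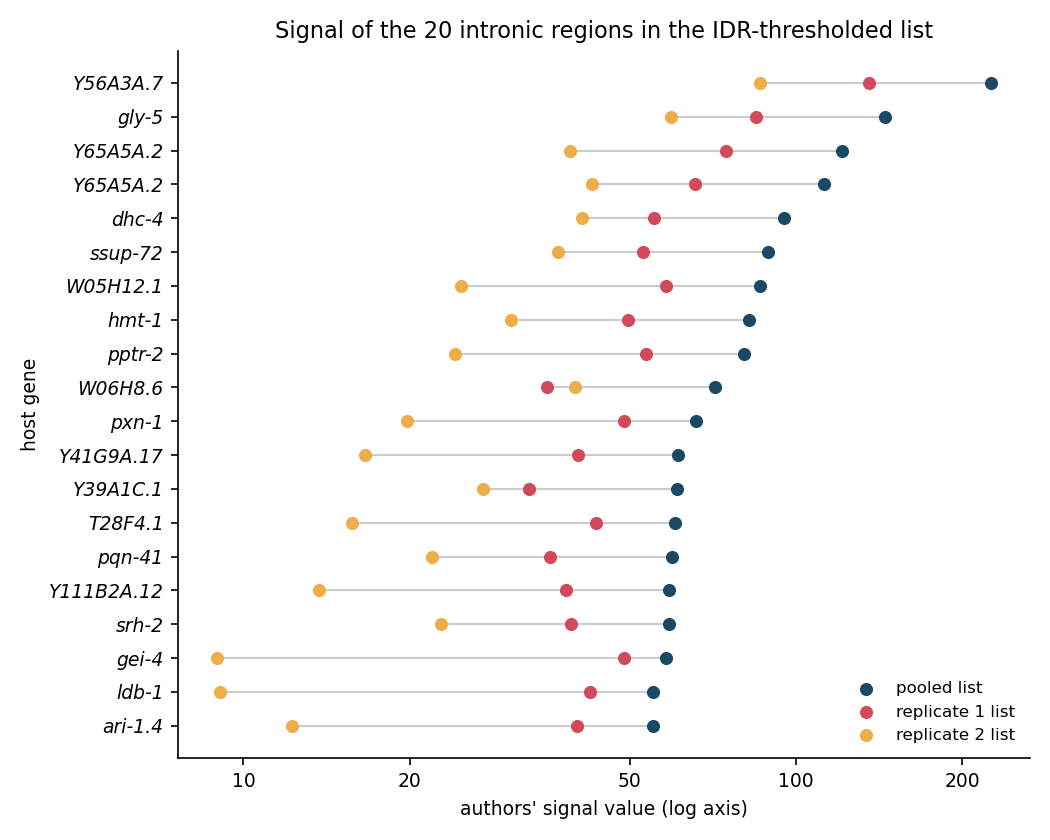
Authors' signal value (horizontal log axis) of each of the 20 intronic regions in the IDR list, by host gene from strongest to weakest pooled signal, in the pooled list and in each replicate list. Y56A3A.7 leads in each of the 3 lists, while gei-4 and ldb-1 are lowest in replicate 2, with signals of 8.95 and 9.06; each list may have its own scale.

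Just below the IDR threshold, the next intronic regions were a second one in pqn-41 (54.3), then ben-1 (50.3), a beta-tubulin gene, T24B8.3 (50.2), epg-9 (48.7), an autophagy gene, and zfp-1 (48.4), a zinc finger gene. The second summit in pqn-41 stood 3902 bp from the first, in the same intron of 10372 bp, and ranked 263rd in replicate 1 (signal 30.7) and 96th in replicate 2 (29.5). The summit in T24B8.3 was 482 bp upstream of an internal start, and the ncRNA gene T24B8.22 began 155 bp downstream of it.

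Internal starts of host genes lay near 16.1% of intronic summits. A start was counted when it differed from the gene's outermost 5′ end and the summit was no more than 1000 bp before it or 200 bp after it. This held for 96 of the 596 (interval 13.2 to 19.3%) in 92 host genes, against 11% of rule positions. It held for 7 of the 20 in the IDR list (35.0%, interval 15.4 to 59.2%), and for 13.4% and 11.9% of intronic regions in the replicate 1 and replicate 2 lists. Of the 96 summits, 85 were upstream of the nearest such start and 36 were within 250 bp of it on that side. Counting any internal start 1 to 250 bp downstream of the summit, a distance chosen after the values were seen, 37 of 596 intronic regions had one (6.21%, interval 4.41 to 8.46%), against 4.30% of intronic regions in replicate 1, 3.23% in replicate 2 and 2.89% of rule positions. Hosts with 1 annotated start, which could not be counted, held 195 of the 596.

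GAGTACAC, which was picked at the strongest regions of the whole list, was in 10 of the 20 intronic IDR regions (50%, interval 27.2 to 72.8%), against 60 of the 178 IDR regions outside introns (33.7%). Either 8-base element was in 50% of the 20, against 52.2% of the 178. All 7 intronic IDR regions with an internal start, in gly-5, Y65A5A.2 (both), ssup-72, pptr-2, srh-2 and ari-1.4, had GAGTACAC with up to 1 mismatch within 75 bp of the summit. Of the other 13 it was found in 3, in Y56A3A.7, pqn-41 and Y111B2A.12. Below the IDR threshold GAGTACAC was in 5 of 89 regions with an internal start (5.62%, interval 1.85 to 12.6%) and in 34 of 487 without (6.98%). Over all 596 intronic regions 49 had GAGTACAC (8.22%), 36 had CTAGGCCA (6.04%) and 80 had either (13.4%), while 15.5% of all pooled regions had either. Intronic regions of a replicate list that overlapped no pooled region had either element in 11.1% in replicate 1 and 9.43% in replicate 2. Both elements stood together in 5 intronic regions, 4 of them in the IDR list, with starts 14 bp apart in gly-5, 15 bp in both regions of Y65A5A.2 and 20 bp in ssup-72. This is 20% of the 20 intronic IDR regions, against 36 of the 178 IDR regions outside introns (20.2%), and 0.839% of all 596, against 2.27% of all pooled regions.

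**Figure D3:**
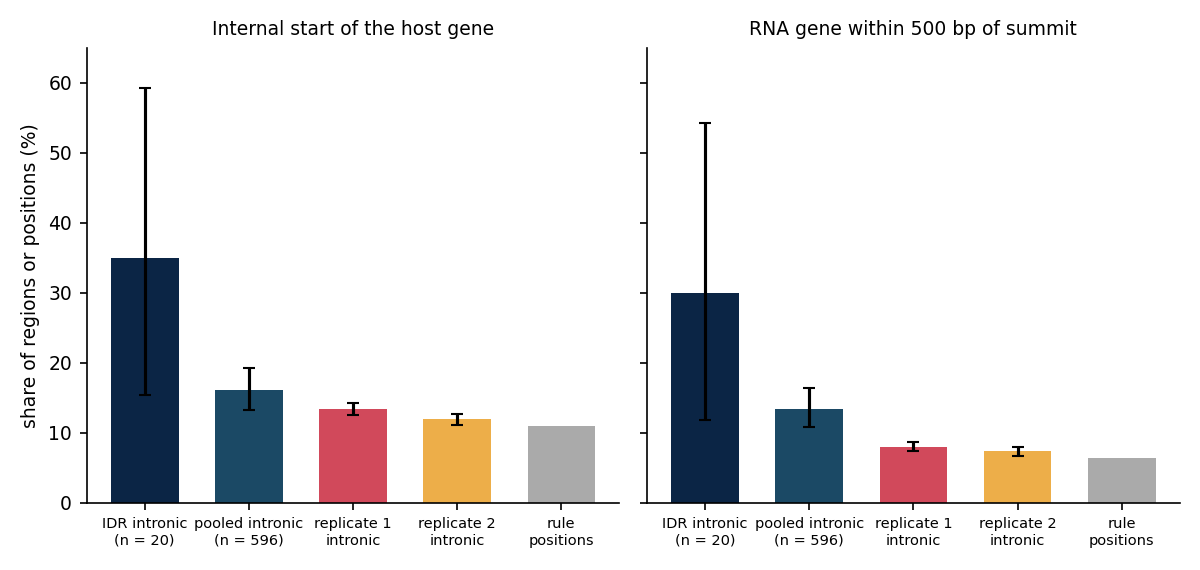
Share (percent) of intronic regions in the IDR list, the pooled list and each replicate list, and of genome positions that meet the rule, with an internal start of the host gene in the window (left) or a non-piRNA RNA gene within 500 bp (right); bars on the regions are 95% exact binomial intervals. Both shares are highest in the IDR regions, 35.0% and 30%, where 20 regions give wide intervals, and lowest at rule positions, 11% and 6.40%.

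Annotated RNA genes other than piRNA genes lay within 500 bp of 80 of the 596 intronic summits (13.4%, interval 10.8 to 16.4%), against 6.40% of rule positions. The share was 30% (6 of 20) in the IDR list, and 8.02% and 7.33% of intronic regions in the replicate 1 and replicate 2 lists. The 80 summits had 124 distinct RNA genes around them, 123 of them nested in the host: 82 of the class named only ncRNA, 19 tRNA, 10 snoRNA, 8 miRNA, 2 snRNA, 2 antisense and 1 lincRNA gene. Together, 159 intronic regions (26.7%) had either an internal start or an RNA gene, against 16.3% of rule positions, and 12 of the 20 in the IDR list did.

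Intronic summits lay upstream of snoRNA genes at a higher share than rule positions do, and the same held for tRNA genes and for snRNA genes (2 regions). Of all intronic summits, 10 (1.68%, interval 0.807 to 3.06%) were 1 to 200 bp upstream of a snoRNA gene, a stretch that holds 0.0645% of rule positions. In the replicate lists taken whole, 14 intronic regions in each were placed so (0.231% in replicate 1 and 0.218% in replicate 2), and 8 snoRNA genes had such a summit in both. Each replicate list was also kept to its own 2689 strongest regions. Then 5 of 670 intronic summits in replicate 2 (0.746%) and 5 of 591 in replicate 1 (0.846%) were upstream of a snoRNA gene. Both shares are below the pooled 1.68%, and whether they rest on the same genes was not examined. The 200 bp window was chosen after the values were seen.

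The strongest of these 12 regions were in dhc-4 (95.4), pxn-1 (66.1), rol-3 (41.1), Y43F8C.7 (40.4) and smrd-1 (39.2), at ranks 51 to 376 of the pooled list. The snRNA gene F32B5.9 in cpz-1, a cathepsin-like protease gene, had a summit 22 bp upstream of it with a signal of 37. The remaining 6, named after their values were seen, were in F01D5.10 (33.3), mix-1 (32.7), which encodes a condensin subunit, Y38F2AR.12 (30.1), rbm-34 (28.1), an RNA-binding protein gene, C08D8.1 (26.4) and mpk-2 (25.6), a MAP kinase gene. The median of the 12 was 35.2, against 27.4 over all intronic regions. All 12 were found in replicate 2 and 11 in replicate 1, where the region in mpk-2 was missing. Replicates ranked them differently: the region in rol-3 ranked 297th in replicate 1 (signal 29.4) and 15520th in replicate 2 (8.55), while that in Y43F8C.7 ranked 4086th in replicate 1 (15.4) and far higher in replicate 2 (27.7). Of the 10 snoRNA genes, 8 lay on the strand of their host.

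**Figure D4:**
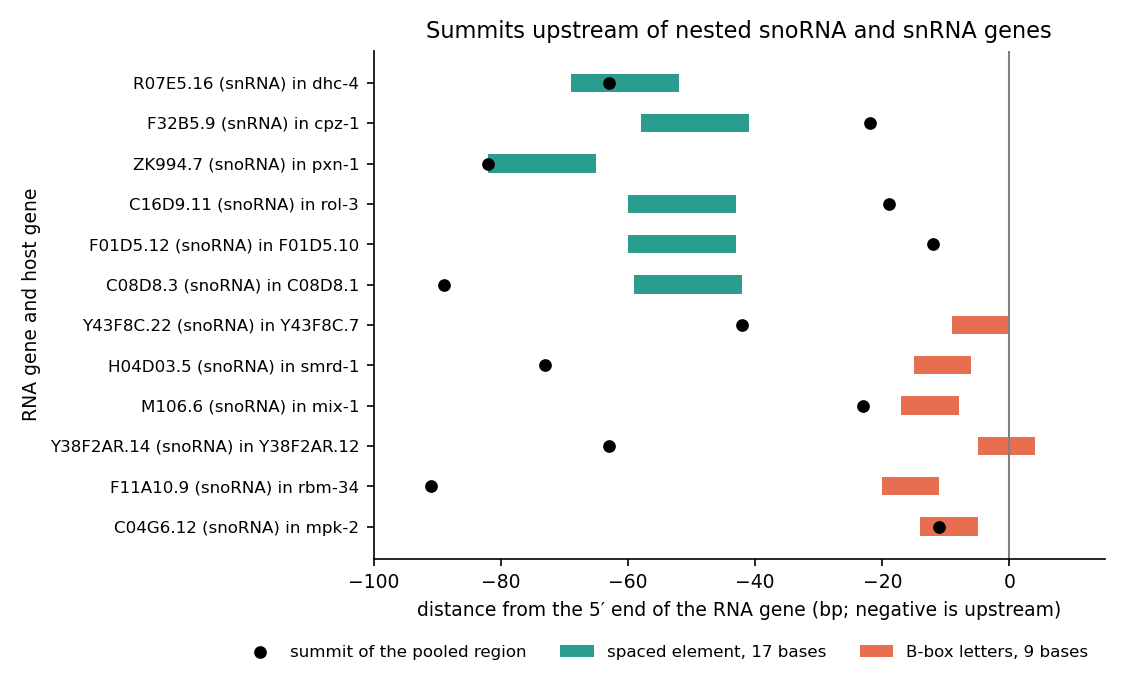
Position of the pooled summit (black dots) and of the element found upstream (bars: green for GNAACNCNNNNNNTGTC, orange for GTTCNANNC) relative to the 5′ end of each of the 12 nested snoRNA and snRNA genes, in bp with upstream negative. Summits lie 11 to 91 bp upstream, the green bars begin 58 to 82 bp upstream and the orange bars begin 5 to 20 bp upstream.

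The element GNAACNCNNNNNNTGTC starts 58 to 60 bp upstream of 4 of the 6 genes that have it beside an intronic summit, 69 bp upstream of R07E5.16 and 82 bp upstream of ZK994.7. Over all annotated genes with this element in the 200 bp upstream on their own strand, its start lay at a median of 61 bp upstream for 34 snoRNA genes and 61 bp for 35 snRNA genes. Among the 152 snoRNA genes with rule positions in those 200 bp, 17 had this element and 4 of them an intronic summit. A further 22 had GTTCNANNC alone, and 6 of those had an intronic summit. The other 113 had neither element and 0 had an intronic summit of the pooled list. In the replicate 1 list 4 of them had an intronic summit, and in the replicate 2 list 4 did. Whether these were the same genes was not examined. Since the elements were read from the 10 genes with summits, their own share and the 0 of 113 are fixed by the choice. The 29 genes with an element and no intronic summit were not used in it. Counting pooled summits of any placement in those 200 bp, 8 of the 17 genes, 7 of the 22 and 0 of the 113 had one. The 8 and the 7 include the 4 and the 6 genes the elements were read from, so they are in part fixed too. Over all 346 snoRNA genes, 12 of 34 with the first element had a pooled summit there. The same held for 11 of 43 with GTTCNANNC alone and 11 of 269 with neither.

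Searched on either strand within 75 bp of the summit, GNAACNCNNNNNNTGTC was in 9 of 596 intronic regions (1.51%, interval 0.693 to 2.85%), in 16 of the 2093 other pooled regions (0.764%) and in 0.930% of all pooled regions. Of the 9, 6 are regions the element was read from, so nothing is drawn from that share. Of the 560 intronic regions not 1 to 200 bp upstream of an RNA gene, 3 had it (0.536%, interval 0.111 to 1.56%). The share of the other pooled regions still counts summits upstream of RNA genes, so it is not a like comparison. Among intronic regions of a replicate that overlapped no pooled region the element was in 0.148% in replicate 1 and 0.412% in replicate 2. Of the 16 outside introns, 8 had their summit 1 to 200 bp upstream of a snoRNA gene and 1 upstream of an snRNA gene. A further 2 were upstream of an ncRNA gene and 1 of a miRNA gene, while 4 were upstream of no RNA gene. GTTCNANNC is shorter and common: it was in 34 intronic regions (5.70%), 5.26% of the rest and 5.36% of all pooled regions.

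tRNA genes had intronic summits upstream as well, though at weaker regions. Summits inside exons of tRNA genes were left out by the position rule. In 9 intronic regions (1.51%, interval 0.693 to 2.85%) the summit was 1 to 200 bp upstream of a tRNA gene, against 0.118% of rule positions, and none of the 9 was in the IDR list. The strongest were in spe-15 (41.8), a myosin gene, with the tRNA gene WBGene00023055 at 99 bp, in ZK1193.2 (38.8), with WBGene00023117 at 38 bp, and in sulp-3 (38.7), a gene of the sulfate permease family, with WBGene00023042 at 15 bp. Of the 270 tRNA genes with rule positions upstream, 10 had a pooled intronic summit there, 31 had one in replicate 1 and 15 in replicate 2. All 9 regions had GTTCNANNC within 150 bp of the summit, which is background for DNA beside tRNA genes.

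The class named only ncRNA had 14 intronic summits 1 to 200 bp upstream of a gene (2.35%, interval 1.29 to 3.91%), against 1.42% of rule positions, a share inside the interval. Genes of this class within 500 bp of the 50 strongest intronic summits included W06H8.16, T28F4.7 and F58A3.6 in the IDR list, and below it F16A11.13 in ppfr-1, F47G6.6 in spe-15 and F13D12.11 in gpb-1, a G protein beta subunit. miRNA genes lay within 500 bp of 5 intronic summits, and 0 of 85 miRNA genes with rule positions had a pooled intronic summit in the 200 bp upstream.

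By distance from the 5′ end of their hosts, intronic summits were spread much as rule positions are. The median summit was 2692 bp from the host's 5′ end (interval 2350 to 3085 bp, range 209 to 39716 bp), and the median rule position was 2654 bp away. Summits 201 to 500 bp inside the gene made up 9.56% of the 596 and 8.24% of rule positions, and those over 5000 bp made up 31.2% and 30.2%. The median distance to the nearest exon was 176 bp for intronic summits and 177 bp for rule positions, while the shares by bin differed. Summits 201 to 500 bp from an exon made up 21% of the 596 (interval 17.8 to 24.5%), against 24.8% of rule positions. Those over 500 bp made up 25.5% (interval 22 to 29.2%), against 21.7% of rule positions, so in both bins the share of rule positions lay outside the interval. The first intron of a transcript of the host held 192 summits (32.2%). At the edge of the promoter window, 18 intronic summits lay within 300 bp of the 5′ end of their host, with a median signal of 27.2, and 77 summits that lay in a gene and outside exons were left out because they fell in a promoter window, with a median signal of 28.4.

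**Figure D5:**
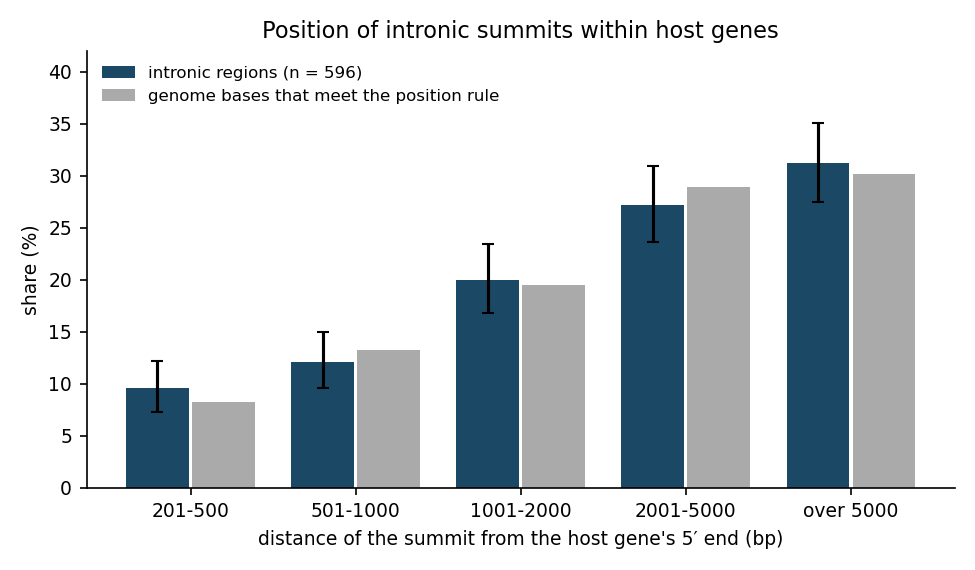
Share (percent) of the 596 intronic summits (dark bars, with 95% exact binomial intervals) and of genome bases that meet the position rule (grey bars) by distance from the host gene's 5′ end in bp. In each of the 5 bins the share of genome bases lies within the interval of the intronic summits.

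The median host spanned 8174 bp per intronic region, against 7000 bp per rule position and 2027 bp over all 19973 protein-coding genes. Of the 524 host genes, 464 held 1 region, 49 held 2, 10 held 3 and 1 held 4. The gene with 4 was kcc-2, a potassium and chloride cotransporter, and none of its regions passed a signal of 28.6. Hosts of 3 included pqn-41, srh-2 and Y111B2A.12, each with 1 region in the IDR list, and ccch-1, which itself has a C3H1-type domain, rgs-2, a regulator of G protein signalling, hlh-30, a basic helix-loop-helix factor, ncl-1, Y48C3A.5 and lit-1, a kinase of the Wnt pathway, with none in it. Regions within a host share its sequence and can lie close together: 23 intronic summits had another pooled summit within 500 bp.

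Lists of genes by tissue and function were compared as hosts. Over all protein-coding genes there were 530 hosts when overlapping hosts are each counted, or 17.7 per megabase of rule positions. Developmental regulators had 7 hosts of 46 listed genes (25.1 per megabase): ceh-37 (signal 30.1), lin-14 (29.9), daf-12 (28.7), daf-16 (28.0), ceh-18, lim-6 and lin-29. Neuronal genes had 6 of 50 (15.9 per megabase), led by unc-119, shk-1 and unc-2, and body wall muscle genes had 4 of 28 (26 per megabase), which were slo-1, unc-68, ttn-1 and unc-52. These muscle regions had signals of 24.8 to 26.3, among the weaker ones of the list. The hypodermis list had elt-3 and vab-10, the intestine list gsa-1, the pharynx list pax-2 and the list of cytosolic ribosomal proteins rps-6. The lists of 26 germ line and 40 chromatin genes had 0 hosts, but they hold only 24.4 kb and 94.9 kb of rule positions, so counts of 0 say little about them. Outside the chromatin list, zfp-1 and let-526 have known roles at chromatin and were hosts. They were picked from the hosts, and let-526 was named after its values were seen. Other chromatin genes outside that list were not counted, so these names give no share. No gene of these lists held an intronic region of the IDR list. The lists are short, and no test was made of them.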

How the data were processed

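Region lists came from ChIP-seq of 2 biological replicates, per the labels. Per the file headers and the notes deposited with them, the lists on build ce11 (WBcel235) are 1 of peaks and background for each replicate, a pooled one and an IDR-thresholded one. The signal value and the −log10 q-value of each region are the authors' own, as deposited. Not given in the sources used here are the scale and normalization of the signal, the aligner, the caller of peaks and the threshold on IDR. Signal served to rank or describe regions inside a single list. All 198 IDR regions were found in the pooled list by coordinates. Lists on build ce10 were not used, and 2 mitochondrial regions of replicate 2 were left out. No reads are kept in a list, which leaves the depth unknown, and an interval covers only the counting error of regions. Regions of the same libraries are not replicates, and no test was made across them.

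Summits were placed by the Ensembl release 115 annotation, with sequence from RefSeq. Rule positions are the 29914170 bases, of 100272607, that meet the position rule. They carry no sampling error, and their shares are not corrected for how well reads map or for GC content. Shares have exact binomial (Clopper-Pearson) 95% intervals, medians have order-statistic intervals, and overlap of lists needed at least 1 bp. Where a summit lay in several genes, position was taken from the shortest. The placement rule and the element search were checked on simulated data. Alternatives were other promoter windows, exons of protein-coding genes only, the 2689 strongest regions of each replicate alone, the IDR list and other distances.

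Genes named are hosts of intronic IDR regions and of the 25 strongest intronic regions, up to 10 hosts with the most regions (at least 3), RNA genes other than piRNA genes beside the 50 strongest, up to 3 leading hosts of each gene list and, as a check, Y116A8C.19 and unc-119. Other names are said to be chosen later, apart from further hosts given to complete a list's count. The regions, gene lists and 8-base elements were chosen with earlier results of these data known. The tools were SciPy 1.17.1, pandas 2.3.3, NumPy 2.4.6 and Python 3.11.15, with Matplotlib 3.10.9 for figures and bedtools for the check.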

Additional observations from a re-analysis of the deposited data

How the results depend on the processing

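Of 58 recomputed values, 36 stayed within the interval of the value reported (a factor of 1.5 for the number of regions). Narrower (500 bp upstream to 100 bp downstream) and wider (2000 to 500 bp) promoter windows gave 23.9% and 18.3% of pooled regions in introns, and the wider window moved the median distance from the host's 5′ end to 3296 bp. With exons of protein-coding genes only, 18.1% of intronic regions had an RNA gene beside the summit. In the IDR list 10.1% of regions were intronic, and of these 30% had an RNA gene, 35.0% an internal start and 50% an 8-base element. Presence in both replicate lists was 55.0% with summits within 100 bp and 68.8% with reciprocal overlap of at least 50%. An RNA gene lay within 200 bp of 8.89% of intronic summits and within 1000 bp of 20.5%, and 19.8% had an RNA gene within 500 bp when piRNA genes counted. Internal starts in a window of 500 bp upstream to 100 bp downstream gave 10.6%. An 8-base element was in 2.01% without mismatch and in 21.8% within 150 bp of the summit. Each replicate list, kept to its own 2689 strongest regions, was also put in place of the pooled list. The percent of regions in introns was then 22 to 24.9 and the median signal percentile 42.9 to 46.4. The percent with an RNA gene was 10.4 to 11.8, with an internal start 13.1 to 16.9 and with an 8-base element 10.6 to 13.4. The median distance from the host's 5′ end was 2395 to 2892 bp. The share upstream of snoRNA genes, and its alternatives, were added after the data were seen: it was 1.42 to 2.21% under the other windows and exon sets. The causes of these shifts were not tested. No paired analysis was possible because there is 1 group. Unknown depth limits what can be said of regions missing from a list.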

Other observations

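The genes tied to the transgene were looked up in the lists as a check. Y116A8C.19 had 0 regions within 1000 bp in the pooled list and in either replicate list. unc-119, whose allele tm4063 the strain carries, had 2 intronic regions in the pooled list. Each replicate list had 4 regions within 1000 bp of it. The stronger intronic region ranked 928th in the pooled list. It had a signal of 30.3 in the pooled list, 16.8 in replicate 1 and 21.3 in replicate 2. In replicate 2 a signal of 20.9 ranked 264th, so this region was among the stronger ones of that list. The weaker had 25.7 in the pooled list and 18.2 in replicate 1, and was missing from replicate 2. Copies of these genes on the transgene and in the genome were not told apart.

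Intronic regions were spread over the 6 nuclear chromosomes, with 16.4 per megabase of rule positions on chromosome II, 18.3 on I, 18.6 on V, 20.9 on IV, 21 on III and 24.0 on X. The 20 in the IDR list were placed otherwise: 8 were on chromosome III, 4 on V, 3 on IV, 2 each on I and X and 1 on II. Of the 198 IDR regions of the whole list, 54 were on chromosome III.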
